A study of Strongylocentrotus purpuratus with 17 samples.

Results

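The regions described here are stretches of the genome of the purple sea urchin, Strongylocentrotus purpuratus, where an active regulatory element was listed in embryos at 12 h and in no list of another stage. They were chosen from the lists themselves. The elements of the 8 h, 12 h, 20 h and 72 h lists were joined, elements sharing at least 1 bp on a scaffold were merged into 1 region, and a region was kept if it held a 12 h element and no element of 8 h, 20 h or 72 h. This gave 5234 regions out of 75451, or 6.94% of the union. Each of the 5234 was exactly 1 element of the 12 h list. Because presence and absence in the lists chose them, their stage pattern is not a result.

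The study measured nascent transcription by PRO-seq, in which polymerases engaged on the DNA of isolated nuclei extend their transcripts with a biotin tag, so that the new RNA can be captured and sequenced. The embryos were of wild genotype and grown at 15 °C, and the lists rest on 2 libraries from 1 biological replicate at 8 h, 4 libraries from 3 replicates at 12 h, 5 from 4 at 20 h and 2 from 2 at 72 h, by the sample titles. Libraries of 12 h and 20 h had been made for a previous study and were processed again here by the submitters on the newer genome, and the tissue field of the labels names the 8 h stage throughout, so stages were taken from the titles. Embryos were whole, so an element used in few cells and an element used weakly in many cannot be told apart, and the other 4 of the 17 samples were not analysed here.

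The elements were called with dREG, a classifier that recognises the paired, divergent transcription found at active promoters and enhancers. Promoters sit at the starts of genes. Enhancers are sites away from the start that bind transcription factors and raise the output of a promoter, often in 1 tissue or for a short time, and polymerases initiate at them in both directions to give short, unstable RNAs. In the sea urchin blastula the zygotic regulatory programmes of skeleton, gut, pigment cells and ectoderm become established through such elements. The lists contain positions only. They give no score, no read number and no strand, and each list pools its libraries, so no value below has a replicate error and no test between stages was made. Read depth is unknown. The 8 h list had 56158 elements, the 12 h list 30570, the 20 h list 37796 and the 72 h list 4425. Ranges in parentheses after a share are 95% intervals by Wilson's method and include counting error alone.

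Gene positions came from the RefSeq annotation of the Spur_5.0 assembly, in a table that gives the start and end of a gene but neither its scaffold nor its strand. The scaffolds were inferred, as the processing summary describes, for 30064 genes on 21 large scaffolds with 828.08 Mb. Of the 5234 regions, 4761 lay on these scaffolds, or 6.79% of the 70137 union regions there. The other 473 lay on small scaffolds with no placed gene and made up 8.9% (8.16 to 9.7%) of the 5314 union regions there. No sequence is printed, as no genome sequence was used here.

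The regions called at 12 h alone were short. Their widths ran between 260 and 2260 bp, with a median of 540 bp and quartiles of 470 and 640 bp, and they covered 3.031 Mb. The 25336 elements of the same 12 h list that were shared with another stage had a median of 700 bp and quartiles of 550 and 960 bp. Regions listed at 1 stage alone resembled each other in width, with a median of 540 bp at 12 h alone, 550 bp at 8 h alone and 560 bp at 20 h alone. Read from the side of the 12 h list, 36.2% of elements of 260 to 400 bp and 33.3% of elements of 401 to 500 bp were listed at 12 h alone. The share was 23.8% at 501 to 600 bp, 14.9% at 601 to 800 bp, 7.27% at 801 to 1000 bp and 2.78% at 1001 to 1500 bp. Only 3 of the 1037 elements wider than 1500 bp were listed at 12 h alone, or 0.289%. The share thus fell with every step in width. Width bears on whether an element meets another list, so these values describe the choice of regions.

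Many of the regions were close to an element of another stage without touching it. The median gap to the nearest element of 8 h, 20 h or 72 h was 3.25 kb. Gaps of 1 to 50 bp were found for 89 regions, of 51 to 100 bp for 97 and of 101 to 500 bp for 542. A further 10 regions abutted another stage's element with a gap of 0 bp, and merging such abutting elements would have removed them. At the far end, 1047 regions, or 20.0%, had no element of another stage within 10 kb. On the other side of the threshold, 85 elements of the 12 h list were excluded although they shared only 1 to 50 bp with another stage, 22 of them only 1 to 10 bp. The median gap to the nearest 8 h element was 4.18 kb, to the nearest 20 h element 8.26 kb and to the nearest 72 h element 83.0 kb, an order that follows the lengths of the 3 lists.

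Relative to genes, the regions lay mostly away from gene ends. A region was counted at a gene end when it overlapped a window of 500 bp either side of the start or the end of a gene, because without strand a promoter cannot be told from the 3′ end. Of the 4761 placed regions, 674 or 14.2% (13.2 to 15.2%) were at a gene end. Of the rest, 2046 were inside a gene by their midpoint and 2041 lay between genes, or 43.0% and 42.9% of the 4761. For comparison, regions listed at 8 h alone were at a gene end in 12.7% (12.3 to 13.2%) and regions listed at 20 h alone in 12.0% (11.4 to 12.6%). Sharing with more stages went with more gene ends. The share was 20.1% for regions listed at 8 h and 12 h, 22.8% at 12 h and 20 h, 47.1% for those of 8 h, 12 h and 20 h, and 74.8% for those of all 4 stages. These shared classes were also wider, with medians of 720, 720, 1020 and 1330 bp. By midpoint their shares were lower, at 14.8%, 18.4%, 41.6% and 68.3% in the same order. The windows took up 6.72% of the bases of the 21 scaffolds and gene bodies 49.1%. Gene bodies here include their parts inside the windows, which the shares inside genes leave out, so those shares do not compare with the 49.1%. A share of bases compares with counts by midpoint and not by overlap, since a wider region meets a window more often. Counted by midpoint in place of overlap, 9.2% (8.41 to 10.1%) of the 12 h alone regions fell in a window, against 8.85% of the 8 h alone regions and 9.32% of the 20 h alone regions. By midpoint the 3 single-stage groups therefore had overlapping intervals, and the small lead of 12 h alone over 20 h alone seen by overlap was absent.

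**Figure D1:**
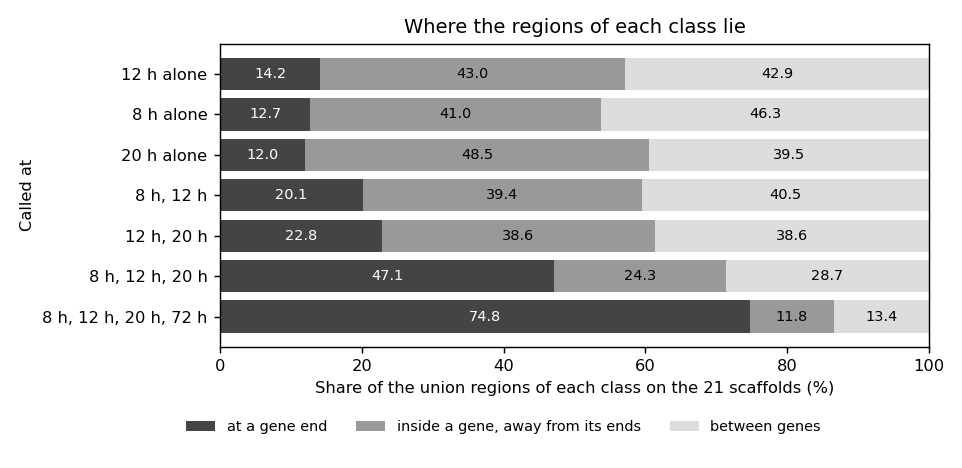
Place of the regions relative to genes, for regions listed at 12 h alone, for those listed at 8 h alone and 20 h alone, and for those shared between stages. Each stacked bar splits 1 class of regions into the percent at a gene end, inside a gene away from its ends and between genes. The gene-end share is 14.2% for 12 h alone and 74.8% for regions listed at all 4 stages.

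Distance from a gene end gave a graded picture. The 12 h alone regions had a midpoint density of 7.87 per Mb within 0.5 kb of a gene end, 7.34 per Mb at 0.5 to 1 kb, 7.3 per Mb at 1 to 2 kb, 6.11 per Mb at 2 to 5 kb, 5.4 per Mb at 5 to 10 kb, 4.9 per Mb at 10 to 20 kb and 4.25 per Mb beyond 20 kb. The density thus fell with every step away from a gene end, where each band holds sequence inside genes as well as between them. The density of regions listed at 8 h alone fell likewise. It was 38.2 per Mb within 0.5 kb, 30.1 per Mb at 0.5 to 1 kb and 25.5 per Mb beyond 20 kb. Regions listed at 8 h, 12 h and 20 h had a steeper step, at 89.0 per Mb within 0.5 kb and 13.01 per Mb in the next band. Regions listed at 20 h alone were at 20.2 per Mb within 0.5 kb, 11.8 per Mb in the next band and 15.9 per Mb at 5 to 10 kb, so their density did not fall steadily. The median distance of a midpoint from the nearest gene end was 4.37 kb for 12 h alone, 5.37 kb for 8 h alone and 5.66 kb for 20 h alone.

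**Figure D2:**
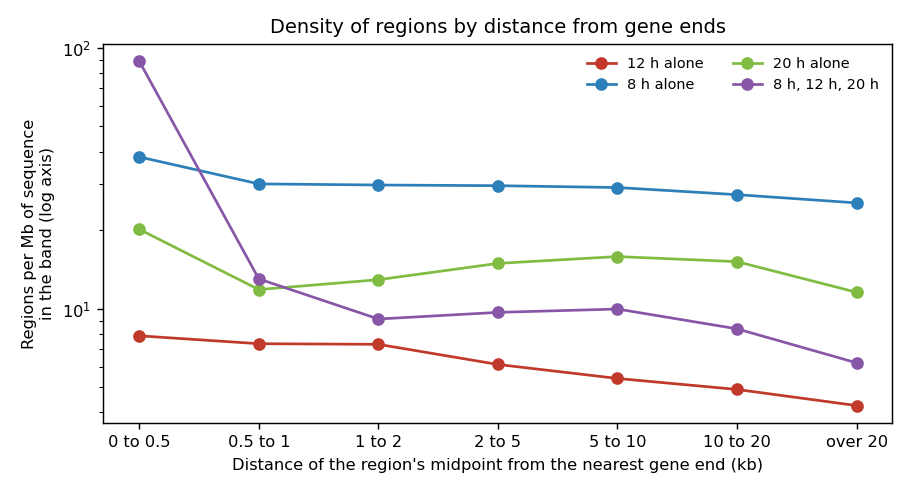
Density of regions per Mb of the sequence in bands of distance from the nearest gene end, on a log axis, for 12 h alone, 8 h alone, 20 h alone and regions shared by 8 h, 12 h and 20 h. The line for 12 h alone descends from 7.87 per Mb nearest to gene ends to 4.25 per Mb beyond 20 kb.

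The kind of gene at which a gene-end region lay also differed in value. Of all 16533 union regions at gene ends, 4.08% (3.79 to 4.39%) were listed at 12 h alone. The share was 7.78% of union regions inside genes away from their ends and 7.47% of those between genes. At the ends of protein-coding genes the share was 3.77% (3.47 to 4.09%), 555 of 14737 regions. At the ends of long non-coding RNA genes it was 6.97% (5.68 to 8.53%), 86 of 1234. The snRNA genes, which encode small nuclear RNAs, had 8 of 76 regions (10.5%, 5.43 to 19.4%), pseudogenes had 11 of 103 (10.7%, 6.07 to 18.1%) and tRNA genes had 18 of 538 (3.35%, 2.13 to 5.23%). Regions listed at 8 h alone also had higher shares at lncRNA and pseudogene ends, with 406 of the 1234 and 33 of the 103. At protein-coding gene ends they were 2526 of the 14737 regions. Their order differed at the other kinds, with 12 of the 76 at snRNA gene ends and 103 of the 538 at tRNA gene ends. Among these 5 kinds the snRNA share was thus the lowest at 8 h alone, and the tRNA share was above the protein-coding share. None of the 10 regions at rRNA gene ends was listed at 12 h alone, and a count of 0 of 10 allows up to 27.8% by the same interval.

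Some of the snRNA and pseudogene regions sat among many annotated genes of the same kind and of nearly the same length. No sequence was used here to compare these copies, and where copies are alike the placing of reads among them, and so a call at 1 copy, is uncertain. On NW_022145605.1, 66 snRNA genes of 162 bp lie between 28434264 and 28507755. Of these genes, 13 had any region at an end and 6 had a 12 h alone region, and 5 of the 10 regions at their ends were listed at 12 h alone. The other 5 were listed at 8 h and 12 h, so each of the 10 held a 12 h element. On NW_022145603.1, 179 pseudogenes of 118 to 119 bp lie between 8338383 and 10697540, and 6 of the 15 regions at their ends were listed at 12 h alone. These met 8 of the pseudogenes. The snRNA and pseudogene shares given above thus rest largely on these places. They supplied 5 of the 8 regions at snRNA gene ends and 6 of the 11 at pseudogene ends. The intervals of those shares count each region as independent.

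Seen per gene, a gene end with a 12 h element and no element of another stage was rare. It was found for 459 of 30064 genes, or 1.53%, and for 356 of 24774 protein-coding genes, or 1.44%. The count depends on the rule of sharing: it was 800 genes when sharing needed a 50% reciprocal overlap, 758 without the 20 h list and 1577 without the 8 h list. The other kinds included 65 lncRNA genes (2.01%), 17 tRNA genes (1.78%), 10 pseudogenes and 9 snRNA genes (3.52%). Locus numbers stand in for names at most genes, and just 249 of the placed protein-coding genes had an informative symbol, so names can be given for few.

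By a fixed rule of at most 20 genes with an informative symbol and a gene end listed at 12 h alone, widest region first, 3 protein-coding genes and 17 tRNA genes were named. The widest was at Not, a homeobox transcription factor gene of the ectoderm and mesoderm. The annotated gene is at NW_022145611.1:32756998-32757346, and an 840-bp region at NW_022145611.1:32756121-32756960 ended 38 bp before it. The other regions in its neighbourhood, the gene body with 10 kb either side, were 1 of 1710 bp and 1 of 1950 bp, each listed at 8 h, 12 h and 20 h. They flanked Not at 6.39 kb before its start and 8.51 kb after its end. Hence the region nearest to the gene was the only one of the 3 listed at 12 h alone.

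The gene msp130 encodes a cell surface glycoprotein of the skeletogenic mesenchyme, the cells that build the larval skeleton. It lies at NW_022145601.1:25050066-25066371. Its 500-bp region, NW_022145601.1:25065741-25066240, was inside the gene, 131 bp from the end with the higher coordinate. Of the other 3 regions in the neighbourhood, 1 was listed at 8 h and 12 h and 2 at 8 h and 20 h, and none of these met a gene end. The third protein-coding gene was sia2, at NW_022145609.1:28446504-28459862, with a 470-bp region that ended 354 bp before the gene's lower coordinate. Neighbouring regions of sia2 were listed at 8 h alone or at 8 h and 20 h, so its 12 h element was the only element of that stage there.

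The 17 tRNA genes carried 12 different symbols, and their 12 h alone regions were 420 to 780 bp wide. The widest lay at a TRNAT-CGU gene at NW_022145600.1:7508447-7508519. A TRNAI-UAU gene at NW_022145605.1:8064114-8064186 had only 2 regions in its neighbourhood, and both were listed at 12 h alone. The 2 TRNAI-AAU genes, 38496778 to 38496850 and 38496973 to 38497045 on NW_022145609.1, share a single 430-bp region. Genes of 1 tRNA symbol can be alike in sequence, which was not tested here, and the placing of reads among them is then uncertain. TRNAE-CUC was named for 3 genes on 3 scaffolds and TRNAT-AGU for 2.

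Among protein-coding genes, 4732 of 24774, or 19.1%, had at least 1 region listed at 12 h alone in the neighbourhood. Of these, 4021 had 1, 599 had 2, 89 had 3, and the highest number was 8. The share followed gene length. With genes in 4 classes of equal size by the length of the neighbourhood, it was 13.6% in the shortest class, 16.5% and 19.1% in the next 2, and 27.2% in the class of 40.25 kb or more. The lists below have to be read against this, since their median neighbourhood ranged between 20.4 and 54.5 kb, against 30.2 kb for all protein-coding genes. The numbers are counts with no test.

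Of the skeletogenic genes, 4 of 16 had a 12 h alone region in the neighbourhood, 25% (10.2 to 49.5%), against 19.1% of all protein-coding genes. Besides msp130 these were ets1, an ETS-domain transcription factor of the skeletogenic cells, and SM50 and SM29, which encode spicule matrix proteins. The region of ets1 was 660 bp wide and 3.85 kb inside the gene from its upper end, and was 1 of 9 regions in the neighbourhood. SM50 had its region 5.32 kb before the lower end of the gene, 680 bp wide and 1 of 7. SM29 had a 420-bp region 4.3 kb before its lower end, 1 of 10. At SM50, an element listed at all 4 stages lay over the upper end of the gene and 4 others were listed at 20 h alone, so elements of 20 h outnumbered those of 12 h there.

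Of the ectoderm genes, 6 of 20 had such a region, 30.0% (14.6 to 51.9%). CyIIIa and cyiiib encode cytoskeletal actins of the aboral ectoderm and had 1 of 7 and 2 of 8 regions listed at 12 h alone. In CyIIIa the region was 550 bp wide and inside the gene, 1.31 kb from the upper end. In cyiiib a 500-bp region lay across the upper gene end and a 410-bp region lay 1.15 kb before the lower end. HMX, a homeobox gene, had a 500-bp region across its upper end and a region listed at all 4 stages across its lower end. ARS, which encodes an arylsulfatase, had a 630-bp region 2.96 kb before its lower end, and SpAN, an astacin-family metalloprotease gene, had a 620-bp region inside it, 1.18 kb from the upper end. Across the ectoderm list, gene-end regions listed at 12 h alone were at Not, HMX and cyiiib, and of these only Not had no region of another pattern at its ends.

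The immune and coelomocyte list had 4 of 7 genes with a region, 57.1% (25.1 to 84.2%), and the gamete list 5 of 12, 41.7% (19.3 to 68.1%). Neither list is independent of gene length, with median neighbourhoods of 52.0 and 54.5 kb. The immune genes were c3 and bf, components of complement, and AMAS2 and AMAS4, which encode amassins, proteins by which coelomocytes aggregate. AMAS2 and AMAS4 are neighbours and share the same 2 regions, of 610 and 550 bp, so the list rests on 4 separate regions. The gamete genes were REJ3, REJ5, REJ7 and rej2, of the receptor for egg jelly family of sperm, and ebr1, the egg receptor for bindin. REJ3 had 3 of 10 regions, a 680-bp one 1.63 kb before the gene and a 480-bp and a 440-bp one inside it, and the other 4 had 1 each. These 4 regions all lay inside the genes. In REJ7 the nearer gene end was the lower one, 17.8 kb away. In REJ5, rej2 and ebr1 it was the upper one, 14.5, 1.44 and 6.51 kb away. Both intervals are wide, and what these genes do in the embryo was not examined here.

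The remaining lists gave small counts. Pigment cell and other mesoderm genes had 2 of 8, ets1 again and SHR3, a nuclear receptor gene with 2 of 14 regions. Endoderm and gut genes had 1 of 9, wnt1, a signalling ligand gene whose single 440-bp region lay 8.61 kb past its upper end among 15 regions. Signalling genes had 2 of 9, wnt1 and DVR1, a ligand gene of the TGF-beta family with its region 6.72 kb before the gene. Early zygotic genes had 3 of 14, SoxB1, DVR1 and SpAN, and apical plate genes 1 of 6, SoxB1, an HMG-box transcription factor gene with a 750-bp region 4.69 kb past its upper end. Homeobox genes had 2 of 18, HMX and Not. No histone gene of 3 and no cell cycle gene of 4 had one, which by the same interval allows up to 56.2% and 49.0%. Lists share genes, and over all lists 23 of 91 genes had a region, 25.3% (17.5 to 35.1%).

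Outside the lists, the named protein-coding genes with most such regions were VEB4, with 3 of 8, then KIF15, with 2 of 3, and gpb5, with 2 of 4. VEB4 is one of the very early blastula genes, which are transcribed for a short time in cleavage and blastula stages. Its 12 h alone regions were 770, 470 and 800 bp wide and lay 4.26 kb and 0.79 kb before the gene and 8.69 kb past its upper end. The gene itself carried a 2170-bp and a 1920-bp region, 1 at each end, both listed at 8 h, 12 h and 20 h. KIF15, a kinesin motor gene, had a 1110-bp region 1.97 kb inside its upper end and a 670-bp region 6.34 kb past it. Its lower end carried a region listed at 8 h, 12 h and 20 h. The gene gpb5, which encodes a subunit of a glycoprotein hormone, had its regions at 5.77 kb and 1.87 kb before the gene. In VEB4 and gpb5 the 12 h alone regions were thus outside the gene, and the regions inside were all shared between stages.

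Of the regions inside genes, 1984 lay in 1785 protein-coding genes. Their host genes often had an element at a gene end as well. A gene-end element was listed at 8 h for the hosts of 62.7% of these regions, at 12 h for 54.6% (52.4 to 56.8%), at 20 h for 56.1% and at 72 h for 16.7%. Over all protein-coding genes, which were not matched to the hosts for length, a gene-end element was listed for 49.5% (8 h), 39.6% (12 h), 43.2% (20 h) and 12.4% (72 h). No element at either end at any stage was found for the hosts of 29.4% (27.4 to 31.4%) of the 12 h alone regions, against 32.4% (31.5 to 33.4%) of the 8 h alone and 19.4% (18.4 to 20.5%) of the 20 h alone regions inside genes. A 12 h gene-end element was present in the hosts of 49.1% of the 8 h alone and 60.6% of the 20 h alone regions inside genes, so the value for 12 h alone lay between them.

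Every large scaffold held 12 h alone regions at a similar density. The density over the 21 scaffolds ran between 4.62 and 7.32 per Mb, with a median of 5.67, so the highest was 1.59 times the lowest. For 8 h alone the density ran between 22.6 and 33.5 per Mb, a ratio of 1.48, and for 20 h alone between 7.48 and 21.5 per Mb, a ratio of 2.87. In 819 windows of 1 Mb the number of 12 h alone regions had a median of 5 and quartiles of 4 and 8. Its variance was 1.51 times its mean, against 2.46 times for 8 h alone and 4.95 times for 20 h alone. This measure was not corrected for the different numbers of regions. Of these windows, 10 had none and the fullest had 21. That window, NW_022145597.1:27000000-27999999, held 119 union regions, of which 17.65% (11.8 to 25.5%) were listed at 12 h alone. The window before it on the same scaffold had 17 of 145, and NW_022145605.1:18000000-18999999 had 18 of 122.

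**Figure D3:**
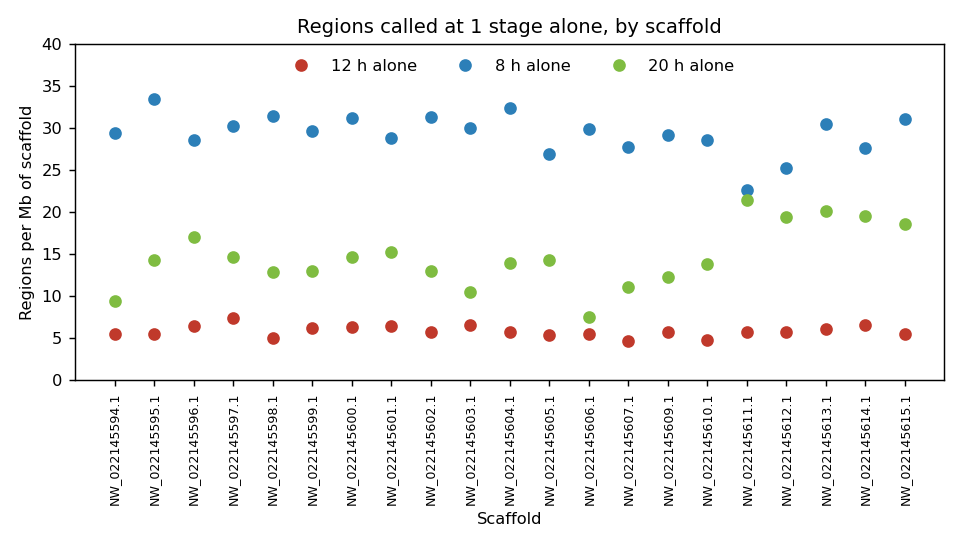
Density of regions per Mb on each of the 21 large scaffolds, for regions listed at 12 h alone, 8 h alone and 20 h alone. The points for 12 h alone stay between 4.62 and 7.32 per Mb, while those for 20 h alone spread between 7.48 and 21.5 per Mb.

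Most of the 12 h alone regions, which were 6.79% of the placed union regions, stood singly. At so small a share, standing singly is not by itself a trait of the group. The median gap to the next such region was 47.05 kb, and 924 of 4761, or 19.4% (18.3 to 20.6%), had another within 10 kb. The shares were 4.22% within 1 kb, 12.4% within 5 kb and 34.5% within 25 kb. For 8 h alone 52.9% and for 20 h alone 53.2% had another of their own kind within 10 kb, but those groups are larger. Set over the mean length of scaffold per region, the median gap was 0.27 for 12 h alone, 0.26 for 8 h alone and 0.12 for 20 h alone. On this scale the values of 12 h alone and 8 h alone were close to each other and that of 20 h alone was lower. In the order of union regions along a scaffold, 80.5% of the 12 h alone regions had no neighbour of their own kind, 64 runs had 3 or more in a row, and the longest run had 6. The share with no such neighbour was 33.9% for 8 h alone and 52.0% for 20 h alone. Both of these groups are larger, and the share was not corrected for group size.

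**Figure D4:**
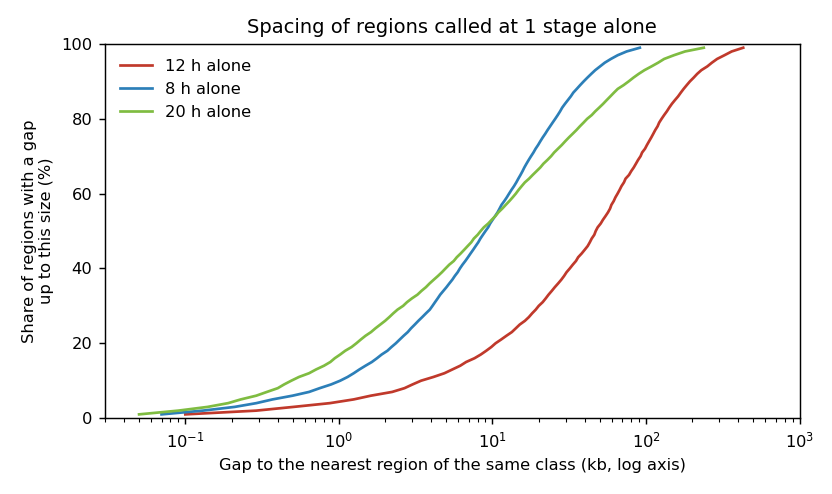
Cumulative percent of regions against the gap in kb, on a log axis, to the nearest region of the same kind, for 12 h alone, 8 h alone and 20 h alone. The curve for 12 h alone lies below the other curves, at 19.4% for a gap of 10 kb and 34.5% for 25 kb.

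Their nearest neighbours of other patterns mostly held an 8 h element, as did most union regions of other patterns. The nearest other union region held an 8 h element for 83.7% (82.6 to 84.7%) of the 12 h alone regions, a 20 h element for 48.7% (47.3 to 50.1%) and a 72 h element for 7.23%. Among all other regions 78.7% held an 8 h element, 53.5% a 20 h element and 6.44% a 72 h element. The nearest region held a 12 h element for 40.2% (38.8 to 41.6%), against 35.5% of all other regions. For 20 h alone regions the matching value was 55.2% with a 20 h element, against 39.5% of all other regions. For 8 h alone regions it was 64.2% with an 8 h element, against 59.4% of all other regions. The paired values of 12 h alone and of 8 h alone were thus about equally far apart, and those of 20 h alone farther.

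A few stretches held several of these regions. For this count all 5234 regions were used, with those on small scaffolds. When regions at most 10 kb apart were joined, 4196 stood alone and 391 stretches held 2. A further 62 held 3, 10 held 4, and 5 stretches held 5 to 7. Of the 2 with 7, the shorter was NW_022145603.1:17127931-17148740, where 7 of 8 regions in 20.81 kb were listed at 12 h alone and the other at 8 h alone. All 7, between 430 and 700 bp wide, lay inside the protein-coding gene LOC578305. They came as 3 in the first 2.19 kb of the stretch, a pair and a single region about the middle, and 1 at the far end. The stretch began 37.6 kb below the lower end of soxd1, an HMG-box transcription factor gene, and between them lay regions listed at 8 h alone, 20 h alone and several stages. The upper end of LOC578305 carried a region listed at 8 h, 12 h and 20 h.

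**Figure D5:**
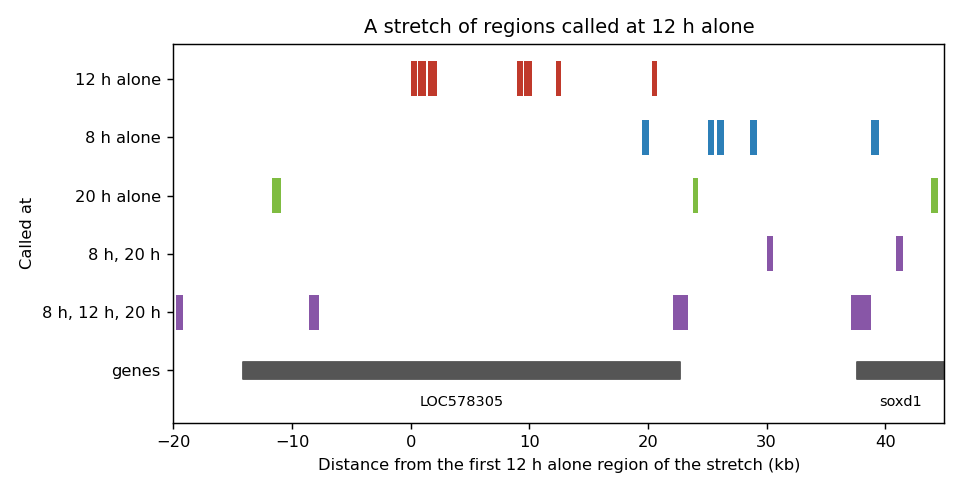
Map of the shorter of the 2 stretches with 7 regions listed at 12 h alone, with regions of other patterns and genes below it, against distance in kb from the first 12 h alone region. The 7 regions listed at 12 h alone lie inside LOC578305 within 20.81 kb, and the region over the lower end of soxd1 is shared by 8 h, 12 h and 20 h.

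The other stretch with 7, NW_022145597.1:27919641-27951950, also had 8 regions in all, and its 7 were of 420 to 850 bp, all inside LOC115922752, and it falls in the 1-Mb window with most such regions. Another, NW_022145600.1:23858261-23888810, had 6 of 10 and met LOC115924101 and LOC115924102. The remaining 2 each had 5, of 8 regions at NW_022145595.1:27252761-27267510 in LOC580999 and of 6 regions at NW_022145594.1:4898881-4917370 in LOC589029. In none of the 5 stretches was a region listed at 20 h alone. In 4 of them a region listed at 8 h alone was interspersed. The stretches were chosen for their 12 h alone regions, so they held few regions of other patterns. Of all 70137 placed union regions, 24045 were listed at 8 h alone and 12015 at 20 h alone. What these locus-numbered genes encode is not given in the table used here.

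The widest regions were exceptions to the narrow form of the group. The widest, 2260 bp at NW_022145607.1:32376501-32378760, lay between genes, 6.12 kb from LOC105445291 and 0.71 kb from an element of another stage. The next, 1680 bp at NW_022145596.1:32149651-32151330, was inside LOC105445688 and 11.35 kb from any other stage's element. A 1530-bp region at NW_022145611.1:36649531-36651060 was the most isolated of the 5 widest, 30.3 kb from a gene end and 49.7 kb from an element of another stage. The remaining pair measured 1470 bp, inside LOC589592, and 1460 bp, on a small scaffold.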

How the data were processed

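Per the labels, every library of a stage points to the same list of dREG peaks on the Sp 5.0 genome, which makes 4 lists. The sources used here name neither the aligner nor the caller's settings nor how libraries were pooled. The deposited lists have 3 columns, scaffold, start and end, in steps of 10 bp, so the values the authors gave are positions and no signal or count. Coordinates are printed from 1.

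Lists were joined into union regions at a minimum overlap of 1 bp, and abutting elements stayed apart. Tools were Python 3.11.15, numpy 2.4.6, pandas 2.3.3 and SciPy 1.17.1, with matplotlib 3.10.9 for plots, and the interval code was tested on simulated data. The gene table of the RefSeq assembly Spur_5.0 lists genes in runs of increasing start. The 21 runs with 900 genes or more were each assigned the scaffold with the largest share of gene ends within 500 bp of an 8 h element. That share was 18.8 to 33.6%, with a ratio of 1.66 to 3.73 over the next best. The runs followed scaffold accession order. All regions except those at 12 h alone placed 21 of 21 runs alike, but hold the 8 h elements used for the placement. That agreement is thus no independent check. The regions at 12 h alone, tried on the 21 scaffolds only, placed 12 of 21 alike. Gene positions therefore rest on an inference from elements, and 30064 of 33490 genes were placed.

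Gene-end windows reach 500 bp either side of both gene ends, and a neighbourhood adds 10 kb either side. Intervals are Wilson at 95%. Genes were named by fixed rules: up to 20 with a gene end at 12 h alone (widest first), the 10 with most regions in the neighbourhood, every listed gene with a region, and genes at the 5 stretches with most regions and the 5 widest regions. The regions, lists and rules were chosen with earlier results of these data known. Base composition was planned and not analysed, since no genome sequence was used here.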

Additional observations from a re-analysis of the deposited data

How the results depend on the processing

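Of 66 values under alternative settings, 33 stayed close to the value reported (a count within 1.5 times, a share within its interval) and 33 moved. With a 50% reciprocal overlap needed for sharing, the gene-end share was 18.82%, the share inside genes 40.74%, the median distance to another stage 1.86 kb, genes with a gene end at 12 h alone 800, protein-coding genes with a region nearby 24.29% and regions with another within 10 kb 23.19%. Counting elements within 100 bp as shared gave a median distance of 3.56 kb and 18.4% of protein-coding genes, and within 500 bp gave 4.33 kb, 16.51% and 17.29% with another within 10 kb. Without the 8 h list there were 12092 regions at 12 h alone, with a gene-end share of 17.12%, 41.32% inside genes, a median width of 560 bp, a median distance of 7.88 kb, 1577 genes, 37.88% of protein-coding genes and 33.21% within 10 kb. Without the 20 h list the gene-end share was 16.46%, the median width 550 bp, the median distance 3.81 kb, the genes 758, the protein-coding share 24.68% and the share within 10 kb 24.93%. Windows of 250 bp gave 10.02% at gene ends and 45.49% inside genes, and windows of 1000 bp gave 21.15% and 38.86%. Neighbourhoods of 5 and 50 kb gave 14.11% and 47.88% of protein-coding genes, and distances of 5 and 25 kb gave 12.39% and 34.51% of regions with another nearby. The number of regions otherwise lay between 4496 and 6974.

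No paired analysis was possible because each stage has 1 list pooled over its libraries. The pooled lists also leave no replicate to omit. The lists differ in length, libraries and replicates. Absence from a list is not absence of transcription, as no signal or depth stands behind it.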
